A study of Mus musculus with 12 samples.

Results

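The data described here are the 21 probe sets of 10 genes, 9 chemokines (Ccl2, Ccl7, Ccl8, Ccl6, Ccl9, Cxcl1, Cxcl12, Cxcl16 and Cx3cl1) and the pentraxin Ptx3, taken by gene symbol from an array of 45101 probe sets and 18193 named genes. The genes were chosen by their log2 differences on these same arrays, mainly from the difference between tamoxifen and vehicle in transgenic hearts, so their values in any comparison that uses transgenic arrays are given as a description without a test. Where the text counts members past a threshold in such a comparison, the count stands beside the share of all genes for description, and nothing is read from it. Each gene was represented by its probe set with the highest mean, and all 10 lay among the 11165 genes bright enough to be tested. In all, 15 of the 21 probe sets lay above that limit, a log2 level of 9.42, and 6 lay below it.

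The series measured left ventricles of 12 male C57BL6 mice in 4 groups of 3, each heart on its own array. Transgenic (TG) mice carry ATF6-MER, the endoplasmic reticulum stress transcription factor ATF6 joined to a mutated estrogen receptor domain of the mouse, through which tamoxifen activates it, and their nontransgenic (NTG) littermates lack it. Mice of both genotypes received either tamoxifen or vehicle. The groups are called NTG vehicle, NTG tamoxifen, TG vehicle and TG tamoxifen. The mice were about 30 weeks old, except that the labels give 40 weeks for TG tamoxifen 1. The sources used here do not name the promoter that drives the transgene, the drug dose or the time from dosing to collection.

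Chemokines are small secreted proteins that bind receptors on leukocytes and direct their movement into tissue. Members of the CC family such as Ccl2 draw monocytes and macrophages, Cxcl1 draws neutrophils, and Cxcl12 retains progenitor cells and lymphocytes; Cxcl16 and Cx3cl1 are made as membrane proteins and can be shed. Ptx3 is a long pentraxin, a secreted pattern recognition protein that binds complement and is made at sites of inflammation by endothelial cells, fibroblasts, smooth muscle cells and myeloid cells.

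A pair of libraries did not match their labels in every respect, and these bear on all that follows. NTG tamoxifen 1 had an Esr1 signal of 17.72 on the log2 scale, where the other NTG arrays lay at or below 10.88 and the TG arrays between 16.66 and 18.25; Esr1 encodes the estrogen receptor, a domain of which is part of the transgene. Its level of Hspa5, the ER chaperone BiP and a known ATF6 target, was 18.05, against 15.65 and 15.49 in the other NTG tamoxifen arrays and 18.37 to 18.47 in TG tamoxifen. The library labelled NTG tamoxifen 1 was kept in its group, and results that rest on it are given with and without it. TG vehicle 3 is called vehicle in its title and tamoxifen in its treatment field, and its Hspa5 level of 15.94 lay between the 16.39 and 15.76 of the other TG vehicle arrays. The 3' to 5' ratio of beta-actin, a measure of RNA integrity, ran from 2.12 to 2.43 in NTG vehicle, 1.78 to 1.97 in NTG tamoxifen, 1.32 to 1.68 in TG vehicle and 1.75 to 1.88 in TG tamoxifen, so the ratio moved with the groups. With it as a covariate, 5 genes in all passed in TG tamoxifen against TG vehicle and 0 in the difference between genotypes; of the 14 genes outside the members that are named by rule as changed in TG hearts, 12 then missed the threshold, and Ccl12 and Rel kept it. In a whole ventricle, more cells of a type and more RNA per cell cannot be told apart.

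The sequences upstream of the genes are shown for members that stood high together in TG tamoxifen hearts and for Cxcl1, whose probe sets disagreed. RefSeq promoters on GRCm38.p6, each 300 bases long with 250 bases before the annotated start and 50 after it, were matched by symbol for 7 of the 10 members. Ccl2, Ccl7 and Cxcl16 were not among them. The Ptx3 promoter lies at chr3:66219637-66219936 on the plus strand, that of Cxcl1 at chr5:90890995-90891294 on the plus strand, that of Ccl9 at chr11:83578587-83578886 on the minus strand and that of its neighbour Ccl6 at chr11:83593038-83593337 on the minus strand. Each runs 5' to 3' in the direction of the gene. Capitals mark the letters that matched a motif on either strand.
Ptx3: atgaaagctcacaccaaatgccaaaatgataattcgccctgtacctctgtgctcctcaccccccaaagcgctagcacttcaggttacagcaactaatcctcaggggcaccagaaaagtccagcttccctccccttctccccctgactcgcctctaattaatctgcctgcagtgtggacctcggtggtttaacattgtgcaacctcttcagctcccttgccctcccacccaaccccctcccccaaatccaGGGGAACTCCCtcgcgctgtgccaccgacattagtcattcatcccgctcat
Cxcl1: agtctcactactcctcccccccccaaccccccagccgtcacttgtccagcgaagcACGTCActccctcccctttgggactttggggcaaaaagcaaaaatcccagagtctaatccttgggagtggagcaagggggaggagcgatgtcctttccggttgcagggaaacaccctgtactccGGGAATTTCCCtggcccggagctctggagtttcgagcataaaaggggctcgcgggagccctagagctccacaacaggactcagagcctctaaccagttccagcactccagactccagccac
Ccl9: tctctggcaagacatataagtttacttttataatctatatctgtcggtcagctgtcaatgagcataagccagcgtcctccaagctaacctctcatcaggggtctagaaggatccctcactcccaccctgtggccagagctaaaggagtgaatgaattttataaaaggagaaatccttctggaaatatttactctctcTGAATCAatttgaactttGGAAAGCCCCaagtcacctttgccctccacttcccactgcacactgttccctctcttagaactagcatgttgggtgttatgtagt
Ccl6: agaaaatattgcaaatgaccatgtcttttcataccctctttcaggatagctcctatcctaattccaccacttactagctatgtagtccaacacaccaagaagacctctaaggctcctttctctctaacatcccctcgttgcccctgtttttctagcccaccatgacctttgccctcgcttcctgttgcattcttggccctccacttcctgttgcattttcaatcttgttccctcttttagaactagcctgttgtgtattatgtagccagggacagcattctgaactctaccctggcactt
The NF-kB consensus was found in the promoters of Ptx3, Cxcl1 and Ccl9, which is 3 of 7 members, and in 4.51% of 32851 promoters of the same length. In Ptx3 the matched letters span bases 250 to 260 and include the annotated start, in Cxcl1 they span bases 180 to 190, and in both the match on one strand overlaps that on the other. In Ccl9 the match lies on the opposite strand at bases 216 to 225. The AP-1 motif TGANTCA occurred in Ccl9 only, at bases 198 to 204, against 7.81% of all promoters, and the CRE motif TGACGT occurred in Cxcl1 only, on the opposite strand at bases 56 to 61, against 7.51%. The amino acid response motif TGATGNAA was in 0 of 7 and in 3.97% of all promoters, and the ER stress element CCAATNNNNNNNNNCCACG was in 0 of 7 and in 0.119%. Both strands were searched in every case. The Ccl6 window held no match to these letters. A match describes the letters and says nothing of binding in these hearts.

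The first comparison asked how the members differed between tamoxifen and vehicle in hearts that carry the drug-activated ATF6. The monocyte-attracting chemokines Ccl2 and Ccl7 and the pentraxin Ptx3 stood furthest above vehicle by the brightest probe set of each gene, by 19.3-fold, 10.6-fold and 39.8-fold, and the macrophage-associated Ccl6 and Ccl9 stood 2.50-fold and 2.62-fold higher. Cxcl1 was 22.1-fold higher in its dimmest probe set, and differed on the log2 scale by 1.12 in the next and by 0.13 in its brightest. For Ccl8, Cxcl12, Cxcl16 and Cx3cl1 the 95% interval of the difference included 0. In limma 5 of the 10 members passed an adjusted p of 0.05 upward and 0 downward, where 10.4% of the 11165 genes passed upward and 14.4% downward. On every TG tamoxifen array the same 5 genes lay above all 9 other arrays, which was the case for 11.9% of genes tested. The median difference was 0.73 on the log2 scale over the 10 members, of which 7 were positive, and -0.07 over all genes tested.

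Values below are log2(intensity + 16) after quantile normalisation, given for arrays 1, 2 and 3 of each group. A difference is the difference of group means with its standard error from a limma fit over the 12 arrays (n = 3 per group), and a fold is the same difference on the linear scale, which understates the change of dim genes.

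Among the CC chemokines, Ccl2, a ligand of the receptor Ccr2 that recruits monocytes, measured 14.25, 13.95 and 14.13 in TG tamoxifen, 9.46, 9.64 and 10.41 in TG vehicle, 11.51, 6.92 and 7.63 in NTG tamoxifen and 10.33, 9.71 and 8.97 in NTG vehicle. All TG tamoxifen arrays lay above every other array, the highest of which was NTG tamoxifen 1. The difference between TG tamoxifen and TG vehicle was 4.27 ± 0.90 (95% interval 2.31 to 6.24). The SD in log2 units was 0.147 in TG tamoxifen and 0.507 in TG vehicle, while it was 2.47 in NTG tamoxifen. The fit shares 1 estimate of the spread over the 4 groups, so the standard error above includes the wide spread of NTG tamoxifen.

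Ccl7, another Ccr2 ligand, gave 13.64, 13.32 and 13.32 in TG tamoxifen, 8.89, 10.41 and 10.74 in TG vehicle, 11.51, 10.04 and 9.09 in NTG tamoxifen and 9.61, 8.30 and 9.38 in NTG vehicle. The TG tamoxifen arrays again lay above all others, and NTG tamoxifen 1 was the next. The difference in TG hearts was 3.41 ± 0.60 (95% interval 2.10 to 4.72).

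Ccl8, which in the mouse acts on Ccr8, had values of 12.86, 12.52 and 12.75 in TG tamoxifen, 11.96, 13.73 and 13.10 in TG vehicle, 12.23, 11.67 and 11.11 in NTG tamoxifen and 12.06, 12.17 and 11.88 in NTG vehicle. The TG groups overlapped fully, with TG vehicle 2 the highest array of the 12. The difference was -0.22 ± 0.39 (95% interval -1.07 to 0.63), so a change of the size seen for Ccl2 or Ccl7 lies outside it.

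Ccl6 and Ccl9 are rodent chemokines that act through Ccr1 and are made mainly by myeloid cells. Ccl6 measured 13.66, 13.55 and 13.33 in TG tamoxifen, 11.66, 12.26 and 12.66 in TG vehicle, 12.64, 11.43 and 10.68 in NTG tamoxifen and 11.35, 11.27 and 11.76 in NTG vehicle. Ccl9 measured 13.91, 13.26 and 13.14 in TG tamoxifen, 11.34, 12.27 and 12.53 in TG vehicle, 12.37, 11.18 and 11.75 in NTG tamoxifen and 11.54, 11.22 and 11.49 in NTG vehicle. Both had all TG tamoxifen arrays on top, with TG vehicle 3 and NTG tamoxifen 1 next below. The differences between the TG groups were 1.32 ± 0.41 for Ccl6 and 1.39 ± 0.36 for Ccl9. A second probe set of Ccl6 gave 0.95 ± 0.46 and a second one of Ccl9 gave 1.40 ± 0.39. After each profile was centred on its own mean, the profiles of Ccl6 and Ccl9 lay 0.376 apart over the 12 arrays (root mean square of the log2 differences), against 1.19 for Ccl2 and Ccl7 and 1.06 for Ccl7 and Ptx3; this distance grows with the size of the differences, so profiles of little variation lie closer.

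**Figure D1:**
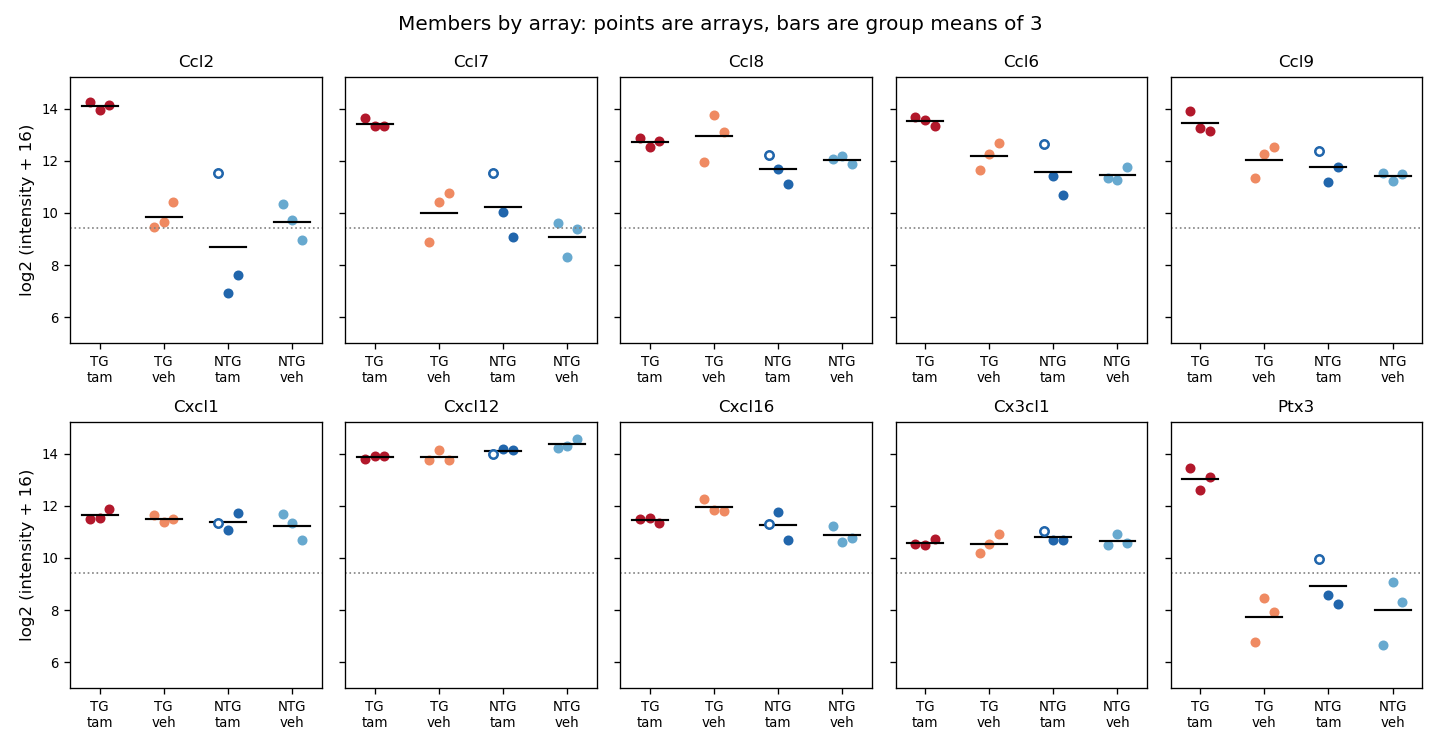
Log2(intensity + 16) of the probe set that stands for each of the 10 genes, 1 point per array and a bar at each group mean of 3; tam is tamoxifen, veh is vehicle, the open circle is NTG tamoxifen 1 and the dotted line is the limit of 9.42 for testing. The TG tamoxifen points lie above all 9 others for Ccl2, Ccl7, Ccl6, Ccl9 and Ptx3, and mix with the other arrays for Ccl8, Cxcl1, Cxcl16 and Cx3cl1.

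Of the CXC and CX3C chemokines, Cxcl1, a ligand of the neutrophil receptor Cxcr2, was read by 3 probe sets that disagreed. The brightest, 1441855_x_at, marked by the platform as one that may match more than 1 transcript, gave 11.51, 11.53 and 11.87 in TG tamoxifen, 11.65, 11.37 and 11.50 in TG vehicle, 11.33, 11.06 and 11.74 in NTG tamoxifen and 11.69, 11.34 and 10.69 in NTG vehicle. These groups overlapped, and the difference between the TG groups was 0.13 ± 0.26 (95% interval -0.43 to 0.70). Probe set 1457644_s_at, also so marked, gave 12.23, 11.59 and 12.15 in TG tamoxifen against 11.15, 10.60 and 10.85 in TG vehicle, a difference of 1.12 ± 0.28. Every TG tamoxifen array lay above the other 9 in this probe set. The unmarked probe set 1419209_at, whose mean of 9.15 lies below the limit for testing, gave 12.19, 11.42 and 11.93 in TG tamoxifen, 6.51, 7.13 and 8.50 in TG vehicle, 9.92, 6.17 and 8.82 in NTG tamoxifen and 9.62, 9.52 and 8.09 in NTG vehicle. In 1419209_at, too, every TG tamoxifen array lay above the other 9, and the difference was 4.46 ± 0.88, or 22.1-fold. Which of the 3 reads Cxcl1 alone was not tested.

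Cxcl12, the ligand of Cxcr4, gave 13.81, 13.90 and 13.90 in TG tamoxifen, 13.74, 14.12 and 13.77 in TG vehicle, 13.99, 14.18 and 14.14 in NTG tamoxifen and 14.22, 14.28 and 14.57 in NTG vehicle. The TG groups overlapped, with a difference of -0.01 ± 0.17 (95% interval -0.37 to 0.36), and NTG vehicle held the 3 highest arrays. A second probe set gave 0.29 ± 0.23 and one more, below the limit for testing, gave 1.39 ± 0.54.

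Cxcl16, the ligand of Cxcr6, gave 11.48, 11.55 and 11.33 in TG tamoxifen, 12.25, 11.84 and 11.80 in TG vehicle, 11.31, 11.76 and 10.70 in NTG tamoxifen and 11.23, 10.61 and 10.76 in NTG vehicle. The 3 TG vehicle arrays were the highest of the 12 and did not overlap with TG tamoxifen, and the difference was -0.51 ± 0.26 (95% interval -1.09 to 0.07). Its other probe set leaned the other way, at 0.85 ± 0.61, with an interval that includes 0.

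Cx3cl1, the ligand of Cx3cr1, gave 10.53, 10.49 and 10.72 in TG tamoxifen, 10.19, 10.52 and 10.92 in TG vehicle, 11.05, 10.68 and 10.69 in NTG tamoxifen and 10.51, 10.91 and 10.57 in NTG vehicle. The groups overlapped throughout and the TG difference was 0.04 ± 0.21 (95% interval -0.42 to 0.50). Its 3 further probe sets lay below the limit for testing and gave 0.54 ± 0.97, -1.33 ± 0.99 and -0.60 ± 0.77.

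Ptx3 had the largest difference of the 10. Probe set 1418666_at gave 13.43, 12.59 and 13.10 in TG tamoxifen, 6.79, 8.45 and 7.92 in TG vehicle, 9.97, 8.60 and 8.24 in NTG tamoxifen and 6.65, 9.10 and 8.31 in NTG vehicle. The TG tamoxifen arrays lay far above the other 9, among which NTG tamoxifen 1 was highest. The difference was 5.32 ± 0.63 (95% interval 3.94 to 6.69). Its mean of 9.43 passed the limit of 9.42 only through TG tamoxifen, the 1 group whose mean lay above it, so the gene could enter the test only by being high there. A second Ptx3 probe set, 1456903_at, lay below the limit and gave 0.98 ± 0.55 between the TG groups, whose arrays overlapped. Its lowest arrays were the 3 of NTG tamoxifen, at -2.12 ± 0.55 from NTG vehicle (limma over all probe sets, adjusted p = 0.156).

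**Figure D2:**
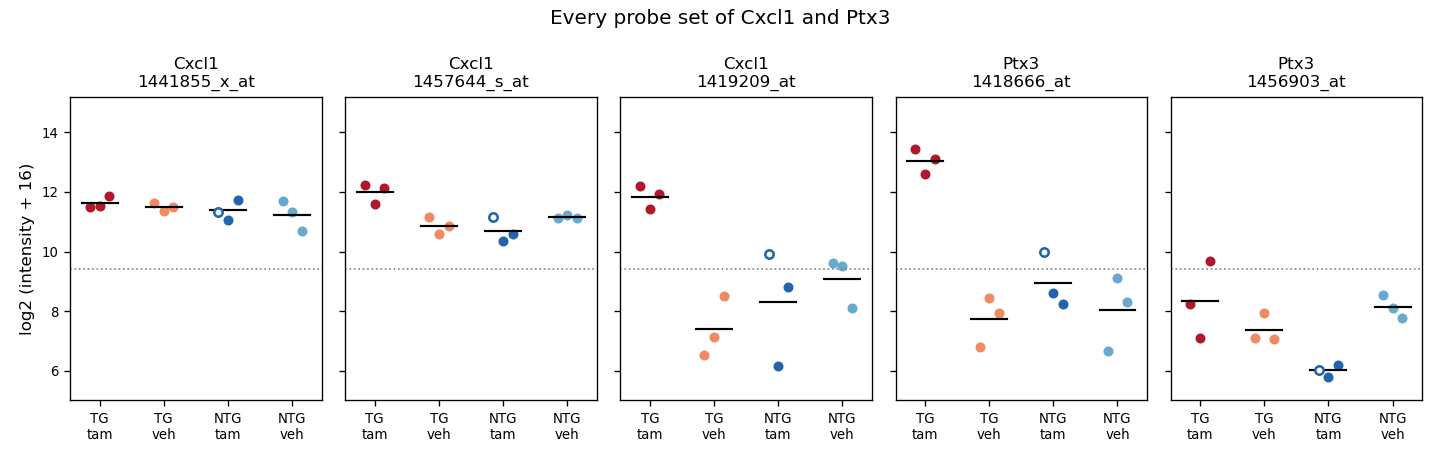
Log2(intensity + 16) of the 3 Cxcl1 and the 2 Ptx3 probe sets by array, with bars at group means of 3, the open circle for NTG tamoxifen 1 and the dotted line at 9.42. The TG tamoxifen arrays stand apart in Cxcl1 1419209_at (difference 4.46) and in Ptx3 1418666_at (5.32). They lie above the other 9 by less in Cxcl1 1457644_s_at (1.12), and mix with the others in Cxcl1 1441855_x_at (0.13).

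The calls in TG hearts depended on single libraries. Leaving out 1 array at a time left between 2 and 5 members past the threshold, with 2 when TG tamoxifen 1 was left out and 3 when TG tamoxifen 2 or TG tamoxifen 3 was; in these settings Ptx3 fell below the limit and 9 members were tested. With TG vehicle 3 counted as tamoxifen, as its treatment field has it, 0 members and 0 of all genes passed in limma (5 members and 2280 genes at an unadjusted p of 0.05). With the beta-actin ratio as a covariate 0 members and 5 genes passed (4 and 2511 unadjusted), and the fitted differences were 4.38 for Ccl2, 4.19 for Ccl7 and 5.19 for Ptx3.

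Tamoxifen in hearts without the transgene is the comparison in which the members can be tested, since it shares no array with the TG contrast. Its question is whether the drug by itself moved these genes. By the brightest probe set of each gene, none of the 10 members passed the threshold in limma. By the same probe sets 0 passed at an unadjusted p of 0.05, as the 95% interval of each included 0. Over all genes 0.681% passed upward and 3.69% downward, and 2633 passed unadjusted. Among the other probe sets, the interval excluded 0 for Ccl9 1448898_at (0.97 ± 0.39, 0.11 to 1.83). It also did for Ptx3 1456903_at (-3.35 to -0.90) and Cx3cl1 1441884_x_at (-3.60 to -0.18), both below the limit for testing. None of these passed after adjustment. The intervals are wide for the dim genes. Ccl2 differed by -0.98 ± 0.90 (limma, adjusted p = 0.545; interval -2.95 to 0.98) and Ccl7 by 1.12 ± 0.60 (adjusted p = 0.287; -0.20 to 2.43). Ptx3 differed by 0.92 ± 0.63 (limma, adjusted p = 0.402, interval -0.46 to 2.29), and its group means differed by 0.40 without NTG tamoxifen 1. The means of 8.94 in NTG tamoxifen and 8.02 in NTG vehicle lay below the limit for testing. Ptx3 was therefore among the tested genes only through TG tamoxifen.

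The other members differed less between the NTG groups. Ccl6 differed by 0.12 ± 0.41 (limma, adjusted p = 0.892) and Ccl9 by 0.35 ± 0.36 (adjusted p = 0.598). Ccl8 differed by -0.37 ± 0.39 (adjusted p = 0.613) and Cxcl12 by -0.25 ± 0.17 (adjusted p = 0.375). The rest lay at 0.39 for Cxcl16, 0.14 for Cxcl1 and 0.14 for Cx3cl1, with adjusted p of 0.393, 0.792 and 0.729. The interval for the brightest probe set of Cx3cl1, -0.32 to 0.60, leaves room for small changes only.

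One library weighed on this comparison. NTG tamoxifen 1, the array with the transgene-like Esr1 level, ranked first of the 9 arrays outside TG tamoxifen for the brightest probe sets of Ccl2, Ccl7, Ptx3 and Cx3cl1 and for Cxcl1 1419209_at, and ranked 2 for those of Ccl6 and Ccl9. It ranked 3 for Ccl8, 5 for Cxcl16 and 7 for Cxcl12 and Cxcl1 1441855_x_at, and among the dim probe sets 8 for Ptx3 1456903_at. Without it Ccl2 fell by 2.40 on the log2 scale (limma, adjusted p = 0.0256) and was the 1 member past the threshold, where 3.09% of genes passed downward. Both remaining NTG tamoxifen arrays, at 6.92 and 7.63, were below all 3 NTG vehicle arrays and near the low end of this scale. The Ccl7 difference was then 0.47 and that of Ccl6 -0.41.

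**Figure D3:**
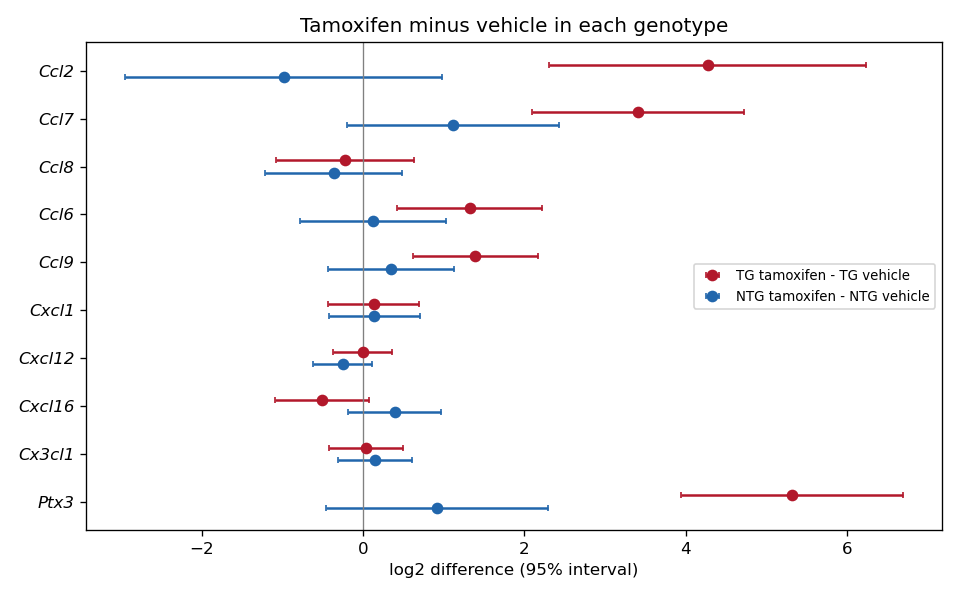
Tamoxifen minus vehicle on the log2 scale for the brightest probe set of each gene, in TG hearts (red) and NTG hearts (blue), with 95% intervals from the fit (n = 3 arrays per group). In NTG hearts every interval includes 0; in TG hearts the intervals of Ccl2, Ccl7, Ccl6, Ccl9 and Ptx3 lie above 0.

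Between genotypes without the drug, Cxcl16 was the 1 member past the threshold, where 1.39% of genes passed upward. It was 1.10 ± 0.26 higher in TG vehicle than in NTG vehicle, or 2.14-fold, and the arrays did not overlap. Its other probe set gave 0.31 ± 0.61 (95% interval -1.04 to 1.66), with arrays that overlapped. Ccl7, Ccl8, Ccl6 and Ccl9 had differences of 0.92, 0.89, 0.74 and 0.63, Ccl2 of 0.17, Ptx3 of -0.30 and Cxcl12 of -0.48. The second probe set of Ccl9 gave 1.54 ± 0.39. The Cxcl16 call was lost in 19 of 26 alternative settings, among them the replicate block, which gave 0 members.

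With tamoxifen in both genotypes, 5 members passed upward, again Ccl2, Ccl7, Ccl6, Ccl9 and Ptx3, where 19% of genes passed upward. This comparison shares the TG tamoxifen arrays with the first, by which the members were chosen. The differences were 5.42 for Ccl2, 4.10 for Ptx3, 3.21 for Ccl7, 1.94 for Ccl6 and 1.67 for Ccl9, and Ccl8 stood 1.04 ± 0.39 higher without passing. Without NTG tamoxifen 1 they were 6.85 for Ccl2, 3.87 for Ccl7, 2.47 for Ccl6, 1.98 for Ccl9 and 1.32 for Ccl8. Ccl8 then passed too, where 4786 of 11167 genes passed in either direction, and Ptx3 was too dim to be tested.

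The drug's difference in TG minus that in NTG hearts was 5.26 ± 1.27 for Ccl2 and 4.40 ± 0.89 for Ptx3, the 2 members past the threshold (Ptx3 having passed the limit only through TG tamoxifen), where 7.51% of genes passed upward. It was 2.29 for Ccl7, 1.20 for Ccl6, 1.04 for Ccl9 and -0.90 for Cxcl16. For Cxcl1 it was -0.005 in the brightest probe set, 1.59 ± 0.39 in 1457644_s_at and 5.24 ± 1.24 in 1419209_at. Neither of the last 2 passed in the fit over all probe sets. Without NTG tamoxifen 1 the members past the threshold were Ccl2, Ccl7 and Ccl6, at 6.68, 2.95 and 1.73, and Ptx3 was then too dim to be tested.

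Many CC chemokine genes lie side by side on mouse chromosome 11, and the neighbours of the members did not all follow them. In the annotated order Ccl2 and Ccl7 are followed by Ccl11, Ccl12, Ccl8 and Ccl1. Ccl12, a mouse ligand of Ccr2, rose in TG tamoxifen against TG vehicle by 3.64 ± 0.48 (limma, adjusted p = 0.00172), from 8.57, 10.39 and 9.61 to 13.27, 13.05 and 13.18. Ccl11, an eosinophil attractant that lies between Ccl7 and Ccl12, differed by 0.57 and did not pass, and Ccl8, on the other side of Ccl12, differed by -0.22. Farther along, Ccl5, Ccl9, Ccl6, Ccl3 and Ccl4 follow each other. Ccl4, next to Ccl3, differed by -0.38 without passing, and Ccl3, below the limit for testing, had group means of 10.26 in TG tamoxifen and 7.01 in TG vehicle.

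**Figure D4:**
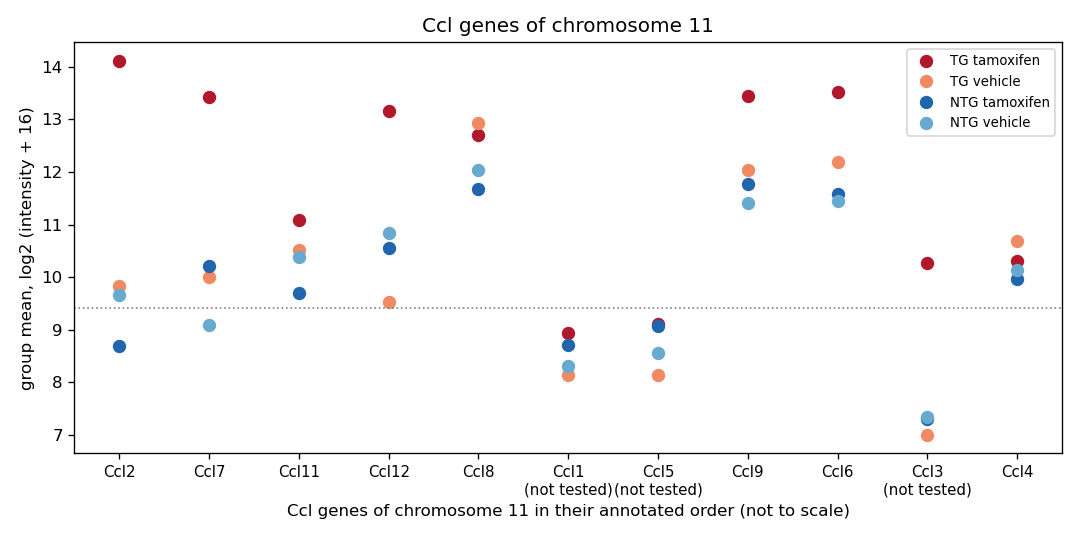
Group means (n = 3 arrays) of log2(intensity + 16) for the Ccl genes of chromosome 11 in their annotated order, not to scale, with the limit for testing of 9.42 dotted. TG tamoxifen stands above the other groups for Ccl2, Ccl7, Ccl12, Ccl9, Ccl6 and Ccl3. It is highest by less for Ccl11 (11.09, next group 10.52), Ccl1 (8.95, next 8.70) and Ccl5 (9.12, next 9.07). Ccl8, at a difference of -0.22, and Ccl4, at -0.38, do not show this. Levels of different genes are not comparable.

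Of 25 further chemokine ligands on the array, 10 were bright enough to test, and 1, Ccl12, rose in TG tamoxifen against TG vehicle and 0 fell, with a median difference of -0.09; over all genes 10.4% rose and 14.4% fell. The tested ligands that did not pass included the platelet chemokines Pf4 (0.13) and Ppbp (0.40) and the interferon-induced Cxcl9 (-0.55). With no limit on dim probe sets, 5 of the 25 ligands passed, where 1604 of all 18193 genes passed in either direction. They were Ccl12 with Cxcl5 (4.20 ± 0.69, limma, adjusted p = 0.0116), Ccl3 (3.25 ± 0.42, adjusted p = 0.00945), Cxcl2 (2.23 ± 0.31, adjusted p = 0.00945) and Cxcl3 (2.14 ± 0.48, adjusted p = 0.0272). The last 4 were named after their values were seen. Cxcl2, Cxcl3 and Cxcl5 are neutrophil attractants of the same receptor as Cxcl1. In NTG hearts 0 ligands rose with tamoxifen and 1 fell, Ccl27a, by 1.37 on the log2 scale (limma, adjusted p = 0.0303).

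Of 12 tested chemokine receptors, 2 rose and 3 fell in TG tamoxifen against TG vehicle, and their median was -0.03, where 10.4% of all genes rose and 14.4% fell. Ccr2, the receptor of Ccl2, Ccl7 and Ccl12 on monocytes, rose by 2.69 ± 0.48 (limma, adjusted p = 0.00384), from 9.97, 10.01 and 8.51 to 12.91, 11.93 and 11.71. Its 3 other probe sets gave 2.37, 1.32 and 1.19. Cxcr6, the receptor of Cxcl16, rose by 2.20 ± 0.42 (adjusted p = 0.00516), from 8.32, 10.01 and 9.99 to 11.76, 11.66 and 11.51. Its group means outside TG tamoxifen ran from 8.82 to 9.80, and its mean over those arrays lay below the limit of 9.42. Cxcr6 thus passed the limit for testing only through TG tamoxifen, so its call is no independent support. For both receptors the arrays of the TG groups did not overlap. Ccr1, the receptor of Ccl6 and Ccl9, differed by 1.03 ± 0.41 and Cx3cr1 by 1.05 ± 0.37, and neither passed. Cxcr4, the receptor of Cxcl12, differed by -0.21, and Cxcr2 lay below the limit for testing.

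The receptors that fell do not signal in the usual way. Ccrl2, a receptor that binds chemerin, fell by 1.39 on the log2 scale (limma, adjusted p = 0.0272), and Ackr3, a scavenger of Cxcl12 named here after its value was seen, fell by 0.91 (adjusted p = 0.0282). Ackr4, a scavenger of CC chemokines, fell by 2.00 (adjusted p = 0.00915), but its other probe sets gave 0.60 and 2.10, and without TG vehicle 3 another probe set stood for it and gave 0.26. Its direction therefore depends on the probe set. In NTG hearts 0 receptors passed in limma in either direction, and 2 did at an unadjusted p of 0.05.

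Of the 8 tested genes for enzymes that cut chemokines or their inhibitor, 4 rose and 1 fell, with a median of 0.41, where 10.4% of all genes rose and 14.4% fell. The 4 became 0 with TG vehicle 3 regrouped or the beta-actin covariate, and 2 without TG tamoxifen 1, TG tamoxifen 2 or TG vehicle 2. Adam10 and Adam17, which shed Cx3cl1 and Cxcl16, rose by 0.78 ± 0.14 (limma, adjusted p = 0.00356) and 0.57 ± 0.18 (adjusted p = 0.0363), although the mean over the probe sets of Adam10 was 0.27 and did not pass. Timp1, which is an inhibitor of metalloproteinases and no enzyme, rose by 2.76 ± 0.54 (adjusted p = 0.00551). Cathepsin S (Ctss), a macrophage protease, rose by 0.92 ± 0.28 (adjusted p = 0.0325). Mmp2, a gelatinase that can cleave Ccl7 and Cxcl12, fell by 1.35 on the log2 scale (adjusted p = 0.00963), with -1.26 in its second probe set.

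Of 17 tested genes of the NF-kB pathway, its inducers and its targets, 7 rose and 0 fell, with a median of 0.62, and the share of all genes that rose was 10.4%. The 7 became 0 with TG vehicle 3 regrouped, 1 with the beta-actin covariate, 3 without TG tamoxifen 1 and 4 without TG tamoxifen 2. Icam1, a leukocyte adhesion molecule, rose by 1.43 ± 0.23 (limma, adjusted p = 0.00281), and the NF-kB subunit Rel by 2.11 ± 0.45 (adjusted p = 0.00778), though the mean of Rel passed the limit for testing only through TG tamoxifen, so its call is no independent support. Nfkbiz, a nuclear IkB protein, rose by 1.28 ± 0.29 (adjusted p = 0.0101) and the interleukin-1 receptor Il1r1 by 1.72 ± 0.40 (adjusted p = 0.0114). The others that rose were Il1b (1.24), Vcam1 (0.63) and Ikbkb (0.62), and of the 4 other Ikbkb probe sets 1 above the limit for testing gave -0.33. Ikbkb fell by 0.81 on the log2 scale in NTG hearts on tamoxifen (adjusted p = 0.0398), the 1 gene of this list to pass there. Of 5 tested pentraxins and Ptx3 partners, 0 passed in limma in TG tamoxifen against TG vehicle (1 at an unadjusted p of 0.05), and the complement genes C1qa, C1qb and C1qc, whose product Ptx3 binds, differed by -0.58, -0.25 and -0.36. The partner Tnfaip6 differed by 0.81 with an adjusted p of 0.0922 in limma.

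Markers of the cells that make and receive chemokines moved in part with the groups. Of 10 tested macrophage markers 3 rose in TG tamoxifen against TG vehicle and 0 fell, where 10.4% of all genes rose and 14.4% fell, and their summed intensity lay between 61100 and 68400 in NTG vehicle, 50300 and 52200 in NTG tamoxifen, 61500 and 115000 in TG vehicle, and 108000 and 159000 in TG tamoxifen. Of 3 tested neutrophil markers 0 passed, with sums of 4000 to 11900 in TG vehicle and 6450 to 9700 in TG tamoxifen. Of 7 endothelial markers 4 fell, with sums of 41800 to 54000 in TG vehicle and 33000 to 36100 in TG tamoxifen, and of 7 cardiomyocyte markers 0 passed, with sums of 2300000 to 2350000 in TG vehicle and 2150000 to 2230000 in TG tamoxifen. Of 7 fibroblast markers 1 rose and 1 fell, and 0 of 3 smooth muscle, 0 of 1 lymphocyte and 0 of 2 mesothelial markers passed. The part of macrophage number and of the other cell types in the members' differences was not tested.

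The genes whose profiles over the 12 arrays lay nearest to those of Ptx3 and Ccl2 were found among all genes tested, as a description. For Ptx3, whose own log2 SD was 2.26, they were Mthfd2 (root mean square difference 0.77), Mllt3 (0.90), Psat1 (0.93), Dnajc3 (1.01) and Socs3 (1.02). For Ccl2, with an SD of 2.35, they were Tk1 (0.89), Eif1a (0.96), Mllt3 (0.97), Ears2 (0.99) and Hmox1 (1.01). All of them were higher in TG tamoxifen than in TG vehicle, by between 2.52 for Hmox1 and 4.34 for Mthfd2. This direction follows from how they were found, since Ptx3 and Ccl2 themselves stood far higher in TG tamoxifen.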

How the data were processed

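Total RNA of 12 left ventricles was hybridised to Affymetrix whole-genome mouse arrays. The authors deposited linear intensities of every probe set, which span 1.02 to 537040. Each array had a mean of 2500.02 with 2% trimmed from both ends, so the arrays had been scaled to a shared target before deposit. The summarisation software is not given in the sources used here. Detection calls were not used. Median intensities ran from 648.5 to 833.8.

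Intensities were taken as log2(value + 16) and quantile normalised, since the array medians spanned 0.355 log2. Of 45101 probe sets, 34945 had 1 symbol in the platform annotation, and the one with the highest mean stood for its gene. Genes whose probe set lay under the 50th percentile of all probe sets (log2 9.42, an intensity of about 670.3) were left out. Differences were fitted with limma 3.58.1 under R 4.3.3 (two-sided moderated tests from lmFit and eBayes) on 4 group means, with 8 residual and 3.55 prior degrees of freedom, with Benjamini-Hochberg adjustment of p-values across the 11165 genes with a threshold of 0.05. Probe sets that did not stand for a gene were read from a fit over 45037 probe sets. The fit was tested on simulated data.

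The members and all gene lists were chosen with earlier results of these data known. The text names all members and, of each pathway list, up to 4 genes with the smallest adjusted p in TG tamoxifen against TG vehicle and up to 2 in NTG tamoxifen against NTG vehicle among those past the threshold. For Ptx3 and Ccl2 it names the 5 nearest profiles. Other genes named were chosen after their values were seen. Promoters and motif matches come from RefSeq sequences of GRCm38.p6. Alternatives covered scaling, offset, the limit on dim probe sets, the summary of probe sets, arrays with conflicting labels, each array left out, a replicate block and the beta-actin ratio. For conflicting labels, TG vehicle 3 was grouped as tamoxifen, or TG vehicle 3 and TG tamoxifen 1 were both left out. NTG tamoxifen 1 stayed in its group in either handling. Replicates were separate hearts per the labels. The number of arrays limits the precision.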

Additional observations from a re-analysis of the deposited data

Results flagged for a closer look

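Of the genes outside the 10 members that are named by rule, 7 had tamoxifen differences that differed between TG and NTG hearts in limma's test of the difference itself. Over all 11165 genes tested, 1593 passed that test. Most of the named genes were chosen by TG tamoxifen against TG vehicle, which is part of this difference, so their calls are no independent support. The difference between the genotypes on the log2 scale was 3.92 for Ccl12 (adjusted p = 0.0106), which moved by 3.64 in TG and -0.28 in NTG hearts. It was -2.39 for Ackr4 (adjusted p = 0.0291), whose probe sets disagree. It was 0.92 for Adam10 (adjusted p = 0.0146), 1.73 for Ctss (adjusted p = 0.0188) and 1.23 for Icam1 (adjusted p = 0.0319). It was 2.29 for Il1r1 (adjusted p = 0.024) and 1.42 for Ikbkb (adjusted p = 0.0123), which fell in NTG hearts. Without NTG tamoxifen 1, which carries a transgene-like Esr1 level, all 7 still passed, with the largest move in Ccl12, at 4.46 (adjusted p = 0.00123). With the beta-actin covariate or with TG vehicle 3 grouped as tamoxifen 0 genes passed in this comparison, so all 7 calls were lost. With TG vehicle 3 and TG tamoxifen 1 left out, 57 genes passed. Groups of 3 arrays were not searched for outlying arrays.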

How the results depend on the processing

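In TG tamoxifen against TG vehicle, 5 members passed. The count was 3 with no limit on dim probe sets and 1 (Ccl7, with Ptx3 not tested) without TG vehicle 3 and TG tamoxifen 1. It was 0 with TG vehicle 3 grouped as tamoxifen, 0 with the beta-actin covariate, and 2 to 5 with 1 array left out. It was 4 for the mean of probe sets (Ccl2, Ccl7, Ccl9 and Cxcl1, with 8 members tested) and 4 for unmarked probe sets (Ccl2, Ccl7, Cxcl1 and Ptx3). In NTG hearts it was 0, and 0 to 1 with 1 array left out. In TG vehicle against NTG vehicle it was 1, and 0 under median centring, no limit or the 25th percentile as the limit, the mean of probe sets, either handling of conflicting labels, the beta-actin covariate, only the compared groups fitted, or unmarked probe sets alone, and 0 to 1 with 1 array left out. In TG tamoxifen against NTG tamoxifen, which shares the arrays by which the members were chosen, it was 5, and 4 to 6 over 26 alternatives. It was 5 with the beta-actin covariate (4629 of all genes). It was 5 with TG vehicle 3 grouped as tamoxifen (3092 of all genes), where Ccl8 passed and Ptx3 did not. For the difference between genotypes the count was 2, with 1 at an offset of 1 or no limit, and 0 to 3 with 1 array left out. It was 0 under either handling of conflicting labels, the covariate or unmarked probe sets. For the mean of probe sets it was 2, Ccl2 and Cxcl1, with 8 members tested.

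Replicate numbers did not pair the arrays: over 18 pairs with the same number, correlations of deviations ran from -0.0872 to 0.091 and 0 exceeded 0.1. With the replicate block 4 members passed in TG tamoxifen against TG vehicle (Ccl6 did not), with 2465 genes in place of 2774, and 0 in TG vehicle against NTG vehicle.

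Other ligands that rose, 1 in the chosen settings, numbered 5 with no limit, 4 at the 25th percentile, 3 with only the compared groups, 5 for unmarked probe sets, 0 with TG vehicle 3 regrouped and 1 to 2 with 1 array left out. Those that fell, 0, numbered 1 under the deposited scaling or only the compared groups and 0 to 1 with 1 array left out. Receptors that rose, 2, numbered 1 for the mean of probe sets or unmarked probe sets, 0 with TG vehicle 3 regrouped or the covariate, and 2 to 3 with 1 array left out. Receptors that fell, 3, numbered 1 with no limit or at the 25th percentile, 0 under either handling of conflicting labels, the covariate or unmarked probe sets, and 0 to 3 with 1 array left out. Cleaving enzymes that rose, 4 with the inhibitor Timp1 among them, numbered 0 with TG vehicle 3 regrouped or the covariate and 2 to 4 with 1 array left out. They numbered 2 with no limit, at the 25th percentile, for the mean of probe sets, with only the compared groups or for unmarked probe sets. NF-kB genes that rose, 7, numbered 0 with TG vehicle 3 regrouped and 1 without TG vehicle 3 and TG tamoxifen 1 or with the covariate. With 1 array left out they numbered 3 to 8.

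Signs turned in NTG hearts for Ccl6 (-0.046 under median centring, -0.41 to 0.58 with 1 array left out), Ccl9 (-0.27 with the covariate) and Cxcl1 (-0.025 under median centring, -0.37 for the mean of probe sets, -0.77 for the unmarked probe set, -0.14 to 0.36 with 1 array left out). In TG hearts Ackr4 ran from -2.69 to 0.26 with 1 array left out and gave 2.10 for unmarked probe sets. Median centring moved the median of all genes in NTG hearts from -0.01 to -0.16. The unmarked probe set setting was chosen after seeing the data. The cause of these shifts was not tested.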

Other observations

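Selp, which encodes P-selectin, an adhesion molecule that Ptx3 binds, lay below the limit for testing and had group means on the log2 scale of 7.74 in NTG vehicle, 8.82 in NTG tamoxifen, 7.72 in TG vehicle and 11.09 in TG tamoxifen. Among the dim chemokines, Ccl17 had means of 9.40 in TG tamoxifen and 7.32 in TG vehicle, and Cxcl10 had means of 10.22 and 8.93. Ccl25 ran the other way, at 7.68 and 9.41. These values were not tested in the filtered fit and were picked after they had been seen.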
